A study of Mus musculus with 9 samples.

Results

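Liver sinusoidal endothelial genes were followed in bulk RNA sequencing of whole mouse liver. The group was chosen by name from the deposited gene table and holds 10 of its 56748 genes: Stab1, Stab2, Clec4g, Lyve1, Fcgr2b, Pecam1, Cdh5, Kdr, Dnase1l3 and Oit3. The livers came from mice labelled C57BL/6 (C57BL/6J in the series text), bought at 7 to 8 weeks of age, in 3 groups of 3 libraries each. Control mice are labelled as given water. DSS mice had chronic colitis from 3 cycles of 1.8% dextran sulfate sodium in the drinking water, each followed by a recovery week, with water by mouth as vehicle. Indirubin mice are labelled DSS+Indirubin and received 1 g/kg/day of indirubin, a red bis-indole compound and ligand of the aryl hydrocarbon receptor, by mouth in addition to DSS. No mouse received indirubin without DSS. The series text describes DSS colitis for the mice as a whole while the Control labels name only water, so whether the Control mice had received DSS is not certain. Each library is called here by its group and number.

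Liver sinusoidal endothelial cells line the hepatic capillaries. They lack a continuous basement membrane, carry open pores called fenestrae, and clear waste macromolecules from portal blood through scavenger and lectin receptors. Injury can shift them towards a continuous, vessel-like endothelium, a change called capillarization. The 10 genes cover these features. Stab1 and Stab2 (stabilins) and Lyve1 encode scavenger and hyaluronan receptors, Clec4g a C-type lectin, and Fcgr2b the inhibitory Fc receptor that takes up immune complexes. Pecam1 (CD31), Cdh5 (VE-cadherin) and Kdr (VEGF receptor 2) are found in endothelium generally. Dnase1l3 encodes a secreted nuclease that degrades chromatin, and Oit3 a secreted or membrane-bound zona pellucida domain protein of liver. Several are not exclusive to sinusoidal cells: Stab1, Fcgr2b and Pecam1 are also made by macrophages or other leukocytes, and Lyve1 by lymphatic endothelium.

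RefSeq promoter sequence, the 250 bases before the annotated gene start on GRCm38.p6, was at hand for 5 of the 10 genes (Stab1, Stab2, Clec4g, Fcgr2b and Kdr). It was searched on both strands for letters bound by families with known roles in endothelium, which are AGATAA for GATA factors, CGGAAG for ETS factors and CCACCC for KLF factors, and for GCGTG, the core bound by the aryl hydrocarbon receptor. The 3 windows below belong to Kdr, Stab1 and Clec4g, and are shown because they differ in level and spread: Kdr varied most of the 10 between libraries and was the lowest per kilobase in DSS and Indirubin, and Clec4g was the highest per kilobase and the steadiest. All 3 genes lie on the minus strand. Capitals mark a match, written as it reads on the gene's own strand.
Kdr, chr5:75978456-75978705: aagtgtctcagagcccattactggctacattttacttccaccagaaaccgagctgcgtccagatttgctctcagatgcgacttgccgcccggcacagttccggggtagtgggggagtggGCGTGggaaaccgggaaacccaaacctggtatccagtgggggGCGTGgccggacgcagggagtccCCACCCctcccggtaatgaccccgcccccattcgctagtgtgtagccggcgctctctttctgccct
Stab1, chr14:31168642-31168891: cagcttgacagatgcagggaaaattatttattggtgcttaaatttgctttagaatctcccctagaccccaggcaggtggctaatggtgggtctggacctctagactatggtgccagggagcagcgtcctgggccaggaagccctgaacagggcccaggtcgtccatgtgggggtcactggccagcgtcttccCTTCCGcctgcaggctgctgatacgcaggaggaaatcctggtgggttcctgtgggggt
Clec4g, chr8:3720652-3720901: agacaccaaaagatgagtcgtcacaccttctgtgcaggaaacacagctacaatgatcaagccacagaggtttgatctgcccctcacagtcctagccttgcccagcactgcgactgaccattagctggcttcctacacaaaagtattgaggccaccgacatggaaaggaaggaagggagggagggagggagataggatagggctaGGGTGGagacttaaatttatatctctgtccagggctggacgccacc

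The Kdr window held the GCGTG core at 131 and at 89 bases before the start and CCACCC at 66 bases. The Stab1 window held the ETS letters in reverse at 58 bases, and the Clec4g window the KLF letters in reverse at 46 bases. Fcgr2b, not printed, held the KLF letters in reverse at 76 bases. No match was found in the Stab2 window, and AGATAA was in none of the 5. Of 32851 RefSeq windows of the same length, 28.2% held GCGTG, 28.1% CCACCC, 13.6% CGGAAG and 9.99% AGATAA, so such matches are common, and they describe letters rather than bound sites.

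The libraries held 6514863 to 7944684 counts, of which transcripts of the mitochondrial genome took 71.6% to 91.3%, leaving 569044 to 2132208 nuclear counts. This share was 72.4% in DSS-3, 71.6% in Indirubin-2 and 77.2% in Indirubin-3. In all other libraries, among them every Control library, it was 85.8% to 91.3%. The 10 genes together drew 157 to 991 counts per library. Levels are given as CPM, counts per 1000000 after TMM scaling over the 9 libraries, on which 1 count was worth 0.0819 to 0.244 CPM. The tissue label held against its markers: Alb (albumin) lay between 4568 and 12827 CPM, against 27.8 to 107 CPM for the 10 endothelial genes summed. In bulk liver, fewer endothelial cells and less RNA per endothelial cell cannot be told apart. No source used here says outright that the libraries of a group came from separate mice, so p-values measure only the spread between these samples, which may be technical.

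Among the receptors for waste and matrix, Stab1 (GRCm39 chr14:30860970-30890598, minus strand) measured 11.1, 20.3 and 7.06 CPM in Control-1, -2 and -3. Its levels in DSS-1, -2 and -3 were 5.10, 1.77 and 5.58 CPM. In Indirubin-1, -2 and -3 they were 11.8, 4.10 and 11.4 CPM. All DSS libraries lay below all Control libraries, and Indirubin-2 fell among the DSS values while the other Indirubin libraries lay within the Control range. The gene overlaps Nt5dc2 on the opposite strand, which had 135 counts over the 9 libraries against 561 for Stab1. Whether reads were counted by strand is not given in the sources used here.

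Its paralog Stab2 (chr10:86677062-86843889, minus strand), the main hyaluronan receptor of the sinusoid, measured 1.95, 10.9 and 6.82 CPM in Control. In DSS it measured 7.94, 4.96 and 9.05 CPM, all within the Control range. In Indirubin it measured 11.9, 12.7 and 10.3 CPM. Every Indirubin library was above every DSS library, and Control-2 overlapped the Indirubin range. By the group mean, DSS was lowest for Stab1 and Control was lowest for Stab2.

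Clec4g (chr8:3757064-3770651, minus strand), the lectin also called LSECtin, measured 8.17, 16.4 and 9.74 CPM in Control. It measured 8.65, 11.5 and 13.3 CPM in DSS and 14.7, 14.996 and 10.7 CPM in Indirubin. The 3 groups overlapped throughout. Over the 9 libraries its log2 level had an SD of 0.35, the smallest of the 10 genes.

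Fcgr2b (chr1:170786186-170804116, minus strand) was the next steadiest, with an SD of 0.52. It measured 9.34, 11.3 and 6.09 CPM in Control, 7.70, 3.54 and 10.6 CPM in DSS, and 11.9, 7.13 and 7.26 CPM in Indirubin. Its groups overlapped as well, with DSS-2 the lowest library.

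Lyve1 (chr7:110449814-110462446, minus strand) was close to the limit of detection. Its counts were 7, 2 and 0 in Control, 21, 0 and 12 in DSS, and 5, 84 and 62 in Indirubin. Both higher values came from Indirubin-2 and Indirubin-3, while Indirubin-1 at 0.918 CPM lay below DSS-1 at 2.49 CPM. A count of 0 allows up to 3 counts, which is 0.731 CPM in Control-3 and 0.532 CPM in DSS-2, for counting error only.

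Of the general endothelial genes, Pecam1 (chr11:106545043-106641454, minus strand), an adhesion molecule of cell contacts, measured 1.75, 4.76 and 3.65 CPM in Control. In DSS it measured 4.39 CPM, no count, and 2.10 CPM. In Indirubin it measured 5.51, 7.13 and 7.09 CPM. All Indirubin libraries were above all 6 others.

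Cdh5 (chr8:104828257-104871143, plus strand), which builds the adherens junctions between endothelial cells, measured 4.86, 10.6 and 9.99 CPM in Control. In DSS it had no count in DSS-1, 3.90 CPM in DSS-2 and 3.93 CPM in DSS-3. In Indirubin it measured 7.71, 7.21 and 6.57 CPM, the narrowest group of the gene. The DSS libraries were below all libraries of both other groups, and Indirubin lay within the Control range.

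Kdr (chr5:76093487-76139118, minus strand), the receptor through which VEGF acts on endothelium, measured 7.199, 8.28 and 0.974 CPM in Control. In DSS it had no count in DSS-1 and DSS-2 and 2.65 CPM in DSS-3. In Indirubin it measured 11.6, 5.08 and 1.99 CPM. It varied most of the 10, with an SD of 2.07 on the log2 scale, and DSS-3 overlapped both other groups. Its DSS level therefore rests on DSS-3. The floor of 3 counts was put in for DSS-1 and DSS-2. The Control mean was then 4.65-fold and the Indirubin mean 5.27-fold the mean of the 3 DSS libraries. These ratios allow for counting error in the zeros only, not for the spread between libraries.

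The secreted nuclease Dnase1l3 (chr14:14475200-14505240, plus strand) measured 23.2, 16.4 and 11.4 CPM in Control. It measured 6.88, 1.24 and 9.23 CPM in DSS and 18.2, 7.95 and 8.295 CPM in Indirubin. All DSS libraries were below all Control libraries. Indirubin-1 lay within the Control range, and Indirubin-2 and Indirubin-3 lay within the DSS range.

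Oit3 (chr10:59258780-59277600, minus strand) measured 4.86, 8.28 and 0.731 CPM in Control. It measured 2.02, 0.886 and 3.11 CPM in DSS and 3.67, 8.03 and 1.64 CPM in Indirubin. Control-3, with 3 counts, was the lowest library of all, so the groups overlapped.

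**Figure D1:**
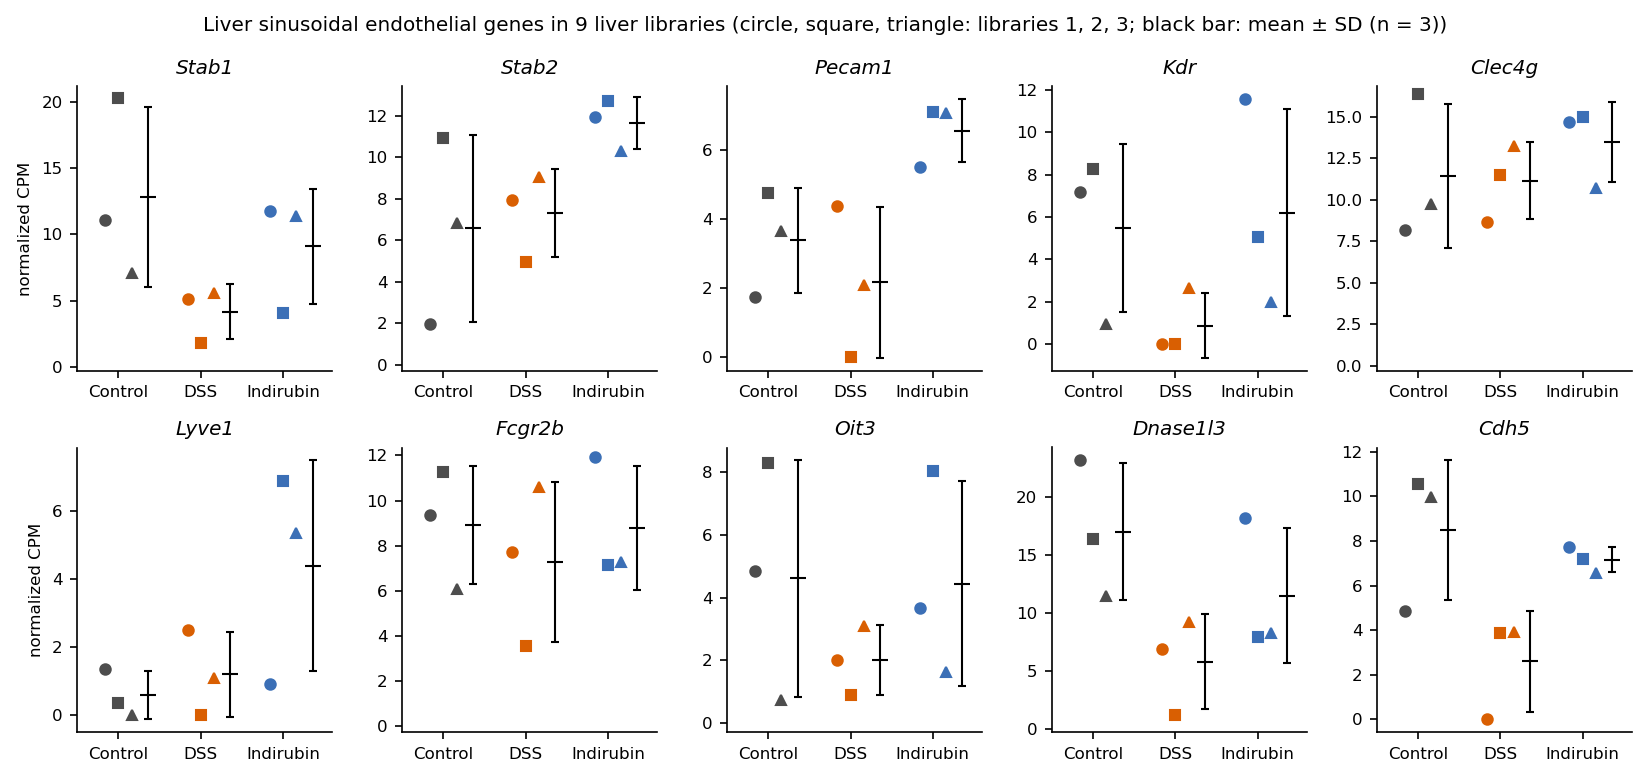
Normalized CPM (vertical axis) of each gene in the Control, DSS and Indirubin libraries, 1 panel per gene, with libraries 1, 2 and 3 as circle, square and triangle and the group mean ± SD (n = 3) as a black bar. Stab1, Dnase1l3 and Cdh5 have all DSS points below all Control points, while Clec4g and Fcgr2b overlap throughout.

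Levels can be ranked between genes once divided by the deposited gene length. On the scale of CPM per kilobase, Clec4g stood highest in every group, at 4.64 ± 1.77 in Control, 4.53 ± 0.944 in DSS and 5.47 ± 0.970 in Indirubin (SD, n = 3). It was followed in Control by Dnase1l3 at 3.30 ± 1.14 and Cdh5 at 2.02 ± 0.747, with overlapping ranges. In DSS the next gene was Fcgr2b at 1.26 ± 0.613, and all Clec4g values lay above all Fcgr2b values. Next came Dnase1l3 at 1.12 ± 0.797 and further down Cdh5 at 0.621 ± 0.538. In Indirubin Clec4g was again followed by Dnase1l3 (2.23 ± 1.13) and Cdh5 (1.70 ± 0.137), and Clec4g did not overlap with Dnase1l3. Lyve1 was lowest in Control at 0.196 ± 0.242, and Kdr was lowest in DSS at 0.0979 ± 0.169 and in Indirubin at 0.688 ± 0.541. Stab2 lay above Pecam1 in every Indirubin library, and all other neighbours in the 3 orders overlapped.

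**Figure D2:**
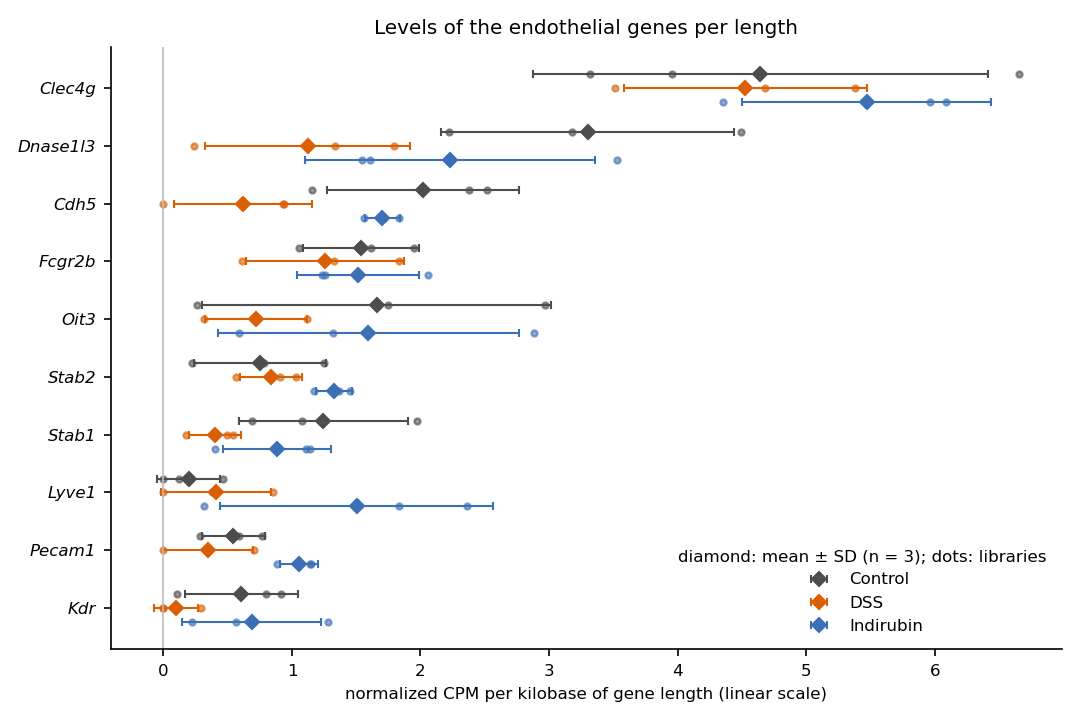
Level of each gene per kilobase of gene length (horizontal axis, CPM per kilobase, linear), with libraries as dots and group means ± SD (n = 3) as diamonds in grey for Control, orange for DSS and blue for Indirubin. Clec4g has the highest mean in every group, and the DSS diamonds of Clec4g, Dnase1l3, Cdh5, Fcgr2b, Oit3, Stab1, Pecam1 and Kdr lie to the left of the other two groups, for Clec4g at 4.53 against 4.64 in Control.

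Each gene's part of the 10-gene sum per kilobase does not depend on how libraries are scaled. Clec4g made up 28.2% ± 5.69 of this sum in Control, 45.8% ± 14.4 in DSS and 30.4% ± 1.06 in Indirubin (SD, n = 3), and its share in every DSS library (35.6% to 62.3%) was above those of both other groups (21.9% to 32.9%). The share of Dnase1l3 was 20.8% ± 7.93 in Control and 9.96% ± 5.85 in DSS without overlap, and 12.2% ± 5.12 in Indirubin. Stab1 took 7.22% ± 1.57 in Control against 3.76% ± 1.38 in DSS, also without overlap, and 5.11% ± 2.77 in Indirubin. Stab2 went the other way, from 4.51% ± 2.67 in Control to 8.10% ± 0.946 in DSS and 7.44% ± 0.497 in Indirubin, with every Control library below the other 6. These shares are descriptions without a test.

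**Figure D3:**
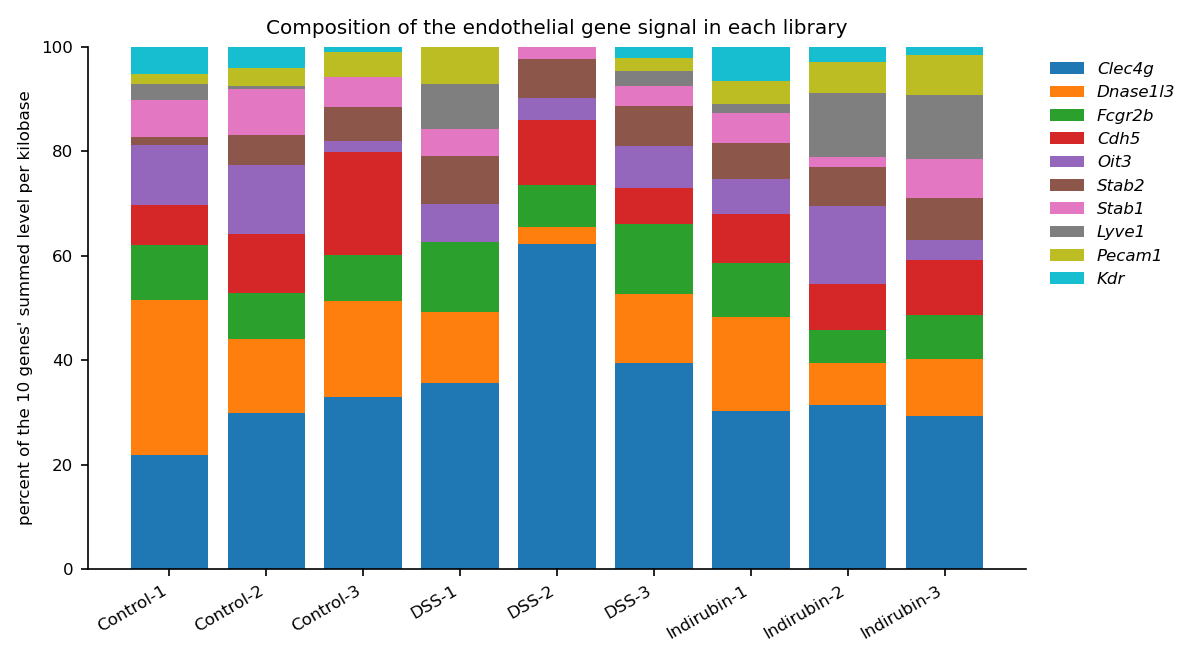
Percent of the 10 genes' summed level per kilobase (vertical axis) taken by each gene in each of the 9 libraries (bars). Clec4g takes 35.6% to 62.3% in the DSS libraries and 21.9% to 32.9% in the others, with DSS-2 the highest.

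The DSS and Control groups were compared to ask how the sinusoidal genes stood in mice labelled DSS against mice labelled water. Stab1 was lower in DSS, at 4.15 ± 2.07 against 12.8 ± 6.76 CPM (SD, n = 3), a log2 fold change of -1.56 (SE 0.55). Dnase1l3 was lower to a like degree, at 5.78 ± 4.11 against 17.0 ± 5.88 CPM, a log2 fold change of -1.51 (SE 0.57). Cdh5, at 2.61 ± 2.26 against 8.47 ± 3.14 CPM, had a log2 fold change of -1.68 (SE 0.92). Clec4g had nearly equal means, 11.1 ± 2.32 against 11.4 ± 4.36 CPM.

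No endothelial gene of the 10 reached an adjusted p under 0.05 by edgeR's quasi-likelihood test in this comparison. That call was made for 0.708% of the 7482 genes tested. Stab1 had an adjusted p of 0.412 and Dnase1l3 an adjusted p of 0.471 over those genes. Both were lower at an unadjusted p under 0.05 (0.0135 and 0.0196), as were 4.05% of all genes tested. Groups were separate for 3 of the 10 genes, Stab1, Dnase1l3 and Cdh5, each with DSS below Control, which held for 8.21% of all genes tested. With DESeq2 the counts were also 0 after adjustment and 2 before it, where 143 of the 7482 genes passed after adjustment and 8.93% before it. Lyve1 was too low for the test, so 9 of the 10 were fitted.

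Kdr had the largest fitted difference, -2.53 on the log2 scale (SE 1.31), with an adjusted p of 0.721 by edgeR. Without DSS-3 it came to -7.95, since both remaining DSS libraries had no count, a fitted value that is no measure of size. After Cdh5, Stab1 and Dnase1l3 came Oit3 at -1.14 (SE 0.89), Pecam1 at -0.58 (SE 1.11) and Fcgr2b at -0.25 (SE 0.50). With 1 library left out at a time, Oit3 ran from -1.68 to -0.46 and Pecam1 from -1.63 to -0.06. Stab2 stood at 0.20 (SE 0.59) and Clec4g at 0.003 (SE 0.42). Thus 7 of the 9 tested genes had a negative fitted value, with a median of -1.14 against 0.01 for all genes tested, 50.6% of which had a positive value. Over the same 9 genes the median was -0.85 without DSS-2, the library with the fewest endothelial counts, and -0.46 without Control-2. Without either library Lyve1 also passed the filter, and the median over 10 genes was then -0.46 and -0.38.

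**Figure D4:**
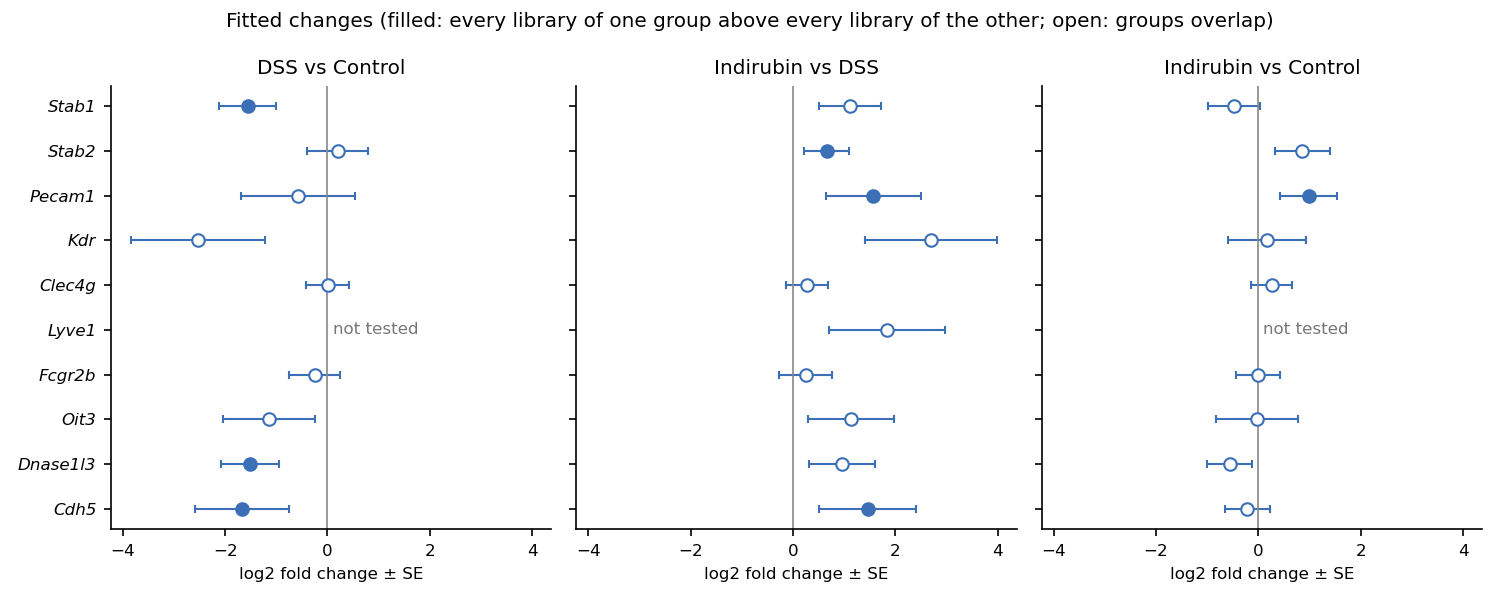
Log2 fold change ± SE from edgeR (horizontal axis) of each gene in the 3 comparisons of 3 against 3 libraries. Filled points mark genes whose groups do not overlap: 3 lower in DSS than in Control, 3 higher in Indirubin than in DSS, and Pecam1 higher in Indirubin than in Control.

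Indirubin was set against DSS to ask what differed when colitis mice also received indirubin. All 10 endothelial genes had a higher fitted level in Indirubin, as did 56.8% of the 9117 genes tested. Pecam1 measured 6.57 ± 0.923 against 2.16 ± 2.19 CPM (SD, n = 3), a log2 fold change of 1.57 (SE 0.92). Cdh5 measured 7.16 ± 0.574 against 2.61 ± 2.26 CPM, a log2 fold change of 1.46 (SE 0.94). Stab2 measured 11.6 ± 1.24 against 7.32 ± 2.11 CPM, a smaller log2 fold change of 0.66 (SE 0.44). With 1 library left out at a time, Pecam1 ran from 0.95 to 2.44, Cdh5 from 0.76 to 1.91 and Stab2 from 0.37 to 0.84.

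None of the 10 passed an adjusted p under 0.05 by edgeR here, and none of all genes tested did (0%). An unadjusted p under 0.05 was reached by none of the 10 either, against 7.68% of all genes tested, and DESeq2 called none after adjustment and Kdr alone (chosen by this value) before it. Of all genes, DESeq2 called 80 of 9117 after adjustment and 9.38% before it. The groups were separate for Stab2, Pecam1 and Cdh5, with Indirubin above DSS, which held for 10.5% of all genes tested. The adjusted p-values of these 3 by edgeR were 0.848, 0.788 and 0.837. An exact permutation test of a single gene with 3 libraries against 3 cannot go below p = 0.1.

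Kdr again had the largest fitted value, 2.70 (SE 1.28), with an unadjusted p of 0.0567 and an adjusted p of 0.672 by edgeR. With 1 library left out at a time it ran from 1.83 to 8.75, so its size is not fixed by these libraries. Lyve1 stood at 1.85 (SE 1.13), and at -0.38 without Indirubin-2 and Indirubin-3. Oit3 stood at 1.13 (SE 0.83), Stab1 at 1.11 (SE 0.60) and Dnase1l3 at 0.96 (SE 0.64). Clec4g at 0.27 (SE 0.40) and Fcgr2b at 0.25 (SE 0.52) were the least apart. The median of the 10 was 1.12, against 0.15 for all genes tested. Without DSS-2 it was 0.70, with 9 of the 10 higher and Fcgr2b at -0.15. The DSS libraries enter this comparison and the last, so the opposite signs are not independent of each other.

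Indirubin-2 and Indirubin-3 carried transcripts of pancreatic acinar cells, at 664.5 and 889 CPM summed over 10 marker genes, against 10.3 CPM in Indirubin-1 and 0 to 17.0 CPM in the other groups. The comparison was also run without both of these libraries. They differed from Indirubin-1 in more than acinar transcripts: mitochondrial genes took 71.6% and 77.2% of their counts, against 89.5% in Indirubin-1. The part of the acinar transcripts alone was therefore not tested. Indirubin-1 on its own was above all 3 DSS libraries for 9 of the 10 genes, Lyve1 being the exception, as it was for 26.5% of the 6531 genes expressed at least as highly as Lyve1. Without both libraries, a fit with Indirubin-1 as the lone sample of its group, 9 of the 10 fitted values were positive, with a median of 1.09, against -0.01 for all genes tested.

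Indirubin and Control were compared to see how far the treated colitis livers stood from those labelled water. Pecam1 was the only gene of the 10 whose groups were separate, at 6.57 ± 0.923 in Indirubin against 3.39 ± 1.52 CPM in Control (SD, n = 3), a log2 fold change of 0.99 (SE 0.56). Indirubin was above Control without overlap for 12.7% of the 8059 genes tested. The adjusted p of Pecam1 was 0.472 by edgeR. No gene of the 10 passed at an adjusted p under 0.05, against 0.236% of all genes tested, and none had an unadjusted p under 0.05, against 13.8%. With DESeq2 neither count differed from 0, where 316 of the 8059 genes passed after adjustment and 15.5% before it.

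Stab2 stood at 0.86 (SE 0.53) on the log2 scale and, per 1000000 nuclear counts, had every Indirubin library above every Control library. Clec4g stood at 0.26 (SE 0.40), Kdr at 0.17 (SE 0.76), Fcgr2b at -0.01 (SE 0.43) and Oit3 at -0.02 (SE 0.80). Cdh5 stood at -0.22 (SE 0.45), Stab1 at -0.48 (SE 0.51) and Dnase1l3 at -0.56 (SE 0.44). Lyve1 was again not tested, with a mean of 4.39 ± 3.10 CPM in Indirubin and 0.571 ± 0.707 CPM in Control. The median of the 9 tested genes was -0.01, against 0.13 for all genes tested, and 4 of the 9 had a positive value, against 55.5%. Scaling by library size alone, which moved the median of all genes to 1.10, gave all 9 a positive fitted value, with signs turned for Stab1, Fcgr2b, Oit3, Dnase1l3 and Cdh5.

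Summed over the 10 genes, the level was 73.7, 107 and 56.5 CPM in Control, 45.2, 27.8 and 60.6 CPM in DSS, and 97.9, 81.2 and 70.6 CPM in Indirubin. Every Indirubin library was above every DSS library, while DSS-3 overlapped Control-3. The sums per 1000000 nuclear counts were 489.8, 617 and 408 in Control, 349.7, 194 and 311 in DSS, and 759.5, 519 and 461 in Indirubin. On that scale the DSS libraries were below all 6 others.

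Most of the missing detections were in DSS. Of the 6 instances of a gene without a count, 5 were in DSS-1 (Kdr, Cdh5) and DSS-2 (Kdr, Pecam1, Lyve1), and the other was Lyve1 in Control-3. In DSS-1, 1.20% of the 2081 genes with a mean level within 1.5-fold of Cdh5 had no count. For the 2678 genes near Kdr it was 1.90%. In DSS-2 absence was commoner: 14.2% of genes near Kdr, 14.8% of genes near Pecam1 and 37.4% of genes near Lyve1 had none. The genes and libraries were picked for their missing counts, so these rates do not test for a loss in DSS. Of 5217 genes with a mean level of 2.05 to 12.0 CPM, 20.3% had no count in exactly 1 library, as Cdh5 and Pecam1 did. A further 4.29% had none in exactly 2 libraries, as Kdr and Lyve1 did. The floor of 3 counts corresponds to 0.356 CPM in DSS-1, against Control means of 8.47 CPM for Cdh5 and 5.48 CPM for Kdr.

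Beyond the 10 genes, 5 lists of 89 further genes with roles in endothelium were examined: junction and adhesion genes, VEGF ligands and receptors, scavenger receptors and lectins, angiocrine Wnt, BMP and Notch factors, and transcription factors. In DSS against Control, 50 of the 89 were tested, of which 21 had a positive and 29 a negative fitted value. Marco, a scavenger receptor known from macrophages and also on the list of Kupffer and macrophage markers, as Clec4f is, was the only one called by edgeR, at a log2 fold change of 2.43 (SE 0.50) and an adjusted p of 0.0443. With each library left out in turn its fold change stayed between 2.08 and 2.66, but the adjusted p by edgeR was under 0.05 in 1 of 6 such fits (0.0307 without DSS-1) and rose to as much as 0.314 in the others. Unadjusted, 2 had p under 0.05 with a higher level and 3 with a lower one, against 3.48% and 4.05% of all genes tested. Marco and Dll4 kept an unadjusted p under 0.05 in all 6 of those fits, and Eng, Plvap and Maf did not. These genes were picked by that p in the same libraries, and how many of all genes kept it was not counted. Dll4 entered the test through its DSS counts alone. It was filtered out without mitochondrial genes and with 10 counts required in every library. With the replicate block its unadjusted p by edgeR was 0.0505.

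Among junction and adhesion genes the lower ones were Eng (endoglin, a TGF-beta co-receptor), at -1.19 (SE 0.45), and Plvap (the protein of fenestral diaphragms), at -0.88 (SE 0.39). Their levels were 8.07 ± 3.69 against 19.2 ± 7.13 CPM and 12.1 ± 4.74 against 22.7 ± 4.99 CPM (SD, n = 3). None of the 14 tested genes of this list was higher at that threshold, and its median was -0.34. The transcription factor Maf was lower at -0.77 (SE 0.33), the single one of 10 tested in its list, whose median was -0.13. Dll4, a Notch ligand, had 11, 17 and 30 counts in DSS and none in Control, and was the single one of 7 tested angiocrine genes (median 0.05). Its DSS mean was 3.83-fold the floor of 3 counts per library in Control, a ratio that leaves out the spread between libraries. None of the 6 tested VEGF genes passed (median -0.43), and scavenger receptors and lectins had a median of 0.16 over 13 tested, with Marco as the single one that passed.

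In Indirubin against DSS, 58 of the 89 were tested, 39 with a positive and 19 with a negative fitted value. None passed after adjustment in the main edgeR fit. Adgrf5 passed with DESeq2 (adjusted p 0.0100) and by edgeR without the filter on low counts (0.0182). Unadjusted, 8 had p under 0.05 with a higher level and 0 with a lower one, against 4.45% and 3.22% of all genes tested. Junction and adhesion genes had 3 of 17 there and a median of 0.54. Adgrf5, an adhesion G protein-coupled receptor of endothelium, had 0, 5 and 4 counts in DSS and 28, 113 and 63 in Indirubin, a log2 fold change of 4.04 (SE 1.013, adjusted p 0.433 by edgeR). Vwf (von Willebrand factor) measured 8.79 ± 4.68 against 2.07 ± 1.21 CPM, and Ptprb, the phosphatase VE-PTP, 9.003 ± 4.43 against 2.61 ± 1.26 CPM.

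Of 13 tested scavenger receptors and lectins 3 were higher at that threshold: Cd36, a fatty acid and lipoprotein receptor, at 1.82 (SE 0.59), Mrc1, the mannose receptor of sinusoidal and macrophage cells, at 1.62 (SE 0.55), and Marco at 1.40 (SE 0.63). Marco measured 8.63 CPM in Indirubin-1, below the 9.01 to 19.8 CPM of DSS, and 31.1 and 72.0 CPM in Indirubin-2 and Indirubin-3, the libraries with acinar transcripts. Its higher value rests on those libraries, and without Indirubin-3 alone it fell to 0.50. Transcription factors had 2 of 12 and a median of 1.09. These were Tcf4 at 1.89 (SE 0.57) and Epas1, the hypoxia-inducible factor HIF-2alpha, at 1.07 (SE 0.46). VEGF genes had none of 6 (median 0.85) and angiocrine genes none of 10 (median -0.06), so the higher genes came from 3 of the 5 lists. Of the 8 higher genes Adgrf5, Mrc1 and Tcf4 kept an unadjusted p under 0.05 whichever library was left out. Vwf lost it without Indirubin-1, Epas1 without Indirubin-1, DSS-2 or DSS-3, Ptprb without DSS-1, Indirubin-1 or Indirubin-2, Cd36 without Indirubin-3, and Marco in 5 of the 6 fits. These 8 were picked by that p in the same libraries, and how many of all genes kept it was not counted. Adgrf5 entered the test through its Indirubin counts alone. With 10 counts required in every library it was filtered out, as was Mrc1.

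In Indirubin against Control, 55 of the 89 were tested, of which 5 had an unadjusted p under 0.05 with a higher level and 2 with a lower one, against 7.45% and 6.38% of all genes tested. Marco, the Kupffer marker, was again the only one called, at 3.82 (SE 0.68) and an adjusted p of 0.0468 by edgeR. The other higher genes were Vwf at 1.73 (SE 0.70), Cd36 at 1.502 (SE 0.58), Cd302 (a C-type lectin) at 1.09 (SE 0.44) and Klf2, a flow-responsive factor of endothelium, at 1.87 (SE 0.63). The lower ones were Nrp1 (neuropilin 1, a VEGF co-receptor) at -1.69 (SE 0.55) and Maf at -1.04 (SE 0.37). Marco and Nrp1 kept an unadjusted p under 0.05 whichever library was left out, and the other 5 did not. All 7 were picked by that p in the same libraries, and how many of all genes kept it was not counted.

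Several of these values rest on Indirubin-2 and Indirubin-3, the libraries with acinar transcripts. Marco measured 8.63 CPM in Indirubin-1, above the 2.14 to 2.99 CPM of Control, against 31.1 and 72.0 CPM in those libraries. Its fold change was 2.93 without Indirubin-3 and 1.66 without both, and its adjusted p by edgeR stayed under 0.05 in 1 of 6 fits with a library left out (2.88e-04 without Indirubin-1), reaching 0.330 in the others. Cd302 measured 25.7 CPM in Indirubin-1, below the 28.0 to 28.4 CPM of Control, and 64.1 and 86.7 CPM in the other two. Nrp1 measured 26.8 CPM in Indirubin-1, near the 28.3 CPM of Control-3, and 9.51 and 5.27 CPM in the other two, with a fold change of -2.70 without Indirubin-1 and -0.75 without both acinar libraries. Klf2 measured 3.67, 14.4 and 6.999 CPM in Indirubin against 1.46 to 2.82 CPM in Control, and its fold change was 1.22 without Indirubin-2 and 0.63 without both. Without Indirubin-1, Cd302 and Nrp1 also passed after adjustment by edgeR (adjusted p 0.0230 and 0.00358). That fit, whose Indirubin group is the acinar libraries alone, called 465 of 9721 genes, against 19 of 8059 in the full comparison. Among the controls, Vwf moved to 2.69 without Control-2 and Cd36 to 2.25 without Control-1.

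Markers of other cell types were compared between the same groups, and several of their sums overlapped. Stellate and fibroblast markers, 10 genes, summed to 129 to 198 CPM in Control, 80.2 to 115 CPM in DSS and 111 to 228 CPM in Indirubin, so the sum was lower in every DSS library than in every Control library. Of the 9 members tested in DSS against Control 8 had a negative fitted value, 3 with an unadjusted p under 0.05, and 5 (Lrat, Reln, Col1a1, Col1a2 and Col3a1) lay below Control without overlap, against 8.21% of all genes tested. None of the 9 had an adjusted p under 0.05 by edgeR (smallest 0.0983). Dcn, Rgs5 and Acta2 overlapped, at -0.31, -0.16 and -0.36, as did Des at 0.12, and Pdgfrb was not tested. Indirubin-1, at 111 CPM, lay below DSS-1, and the higher Indirubin sums were those of Indirubin-2 and Indirubin-3 (224 and 228 CPM). Col1a2, a chain of type I collagen, measured 10.1 ± 0.539, 1.83 ± 1.04 and 8.38 ± 1.14 CPM in Control, DSS and Indirubin (SD, n = 3). Col3a1, the chain of type III collagen, measured 18.8 to 22.6 CPM in Control, 6.38 to 16.4 CPM in DSS and 9.42 to 13.8 CPM in Indirubin, and Lrat, the retinol-esterifying enzyme of stellate cells, 7.06 to 8.28, 0 to 6.05 and 1.12 to 4.59 CPM, so for both Indirubin overlapped DSS and lay below Control. The 12 Kupffer and macrophage markers summed to 141 to 226, 196 to 217 and 241 to 319 CPM, higher in every Indirubin library than in every DSS library. Hepatocyte markers, 10 genes, summed to 11070 to 18199, 8975 to 16972 and 6934 to 10153 CPM. The part of these cell types in the endothelial results was not tested.

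Vessels other than sinusoids were also represented. The 9 markers of large-vessel endothelium summed to 26.1 to 35.4 CPM in Control, 8.68 to 24.04 CPM in DSS and 23.0 to 39.7 CPM in Indirubin, and the 6 lymphatic markers to 14.4 to 32.9, 7.68 to 20.4 and 14.2 to 29.9 CPM. Each of these sums was led by a gene that another list also holds. Plvap made up 62.6% of the large-vessel sum, and without it the sums were 1.70 to 11.1 CPM in Control, 1.77 to 10.4 CPM in DSS and 7.29 to 25.1 CPM in Indirubin, so Control and DSS overlapped. Reln, also on the stellate list, made up 52.7% of the lymphatic sum, which without it was 3.17 to 7.05, 5.30 to 12.2 and 7.43 to 18.4 CPM. Monocyte and neutrophil markers, 10 genes with Cxcr2 at 0 in every library, summed to 1.17 to 4.38, 12.4 to 22.3 and 27.2 to 253 CPM. The 6 erythroid markers summed to 110 to 267, 147 to 256 and 167 to 668 CPM. In both lists Indirubin-2 (253 and 668 CPM) and Indirubin-3 (89.4 and 647 CPM) stood above Indirubin-1 (27.2 and 167 CPM). Summed levels were for B and T lymphocyte markers 2.92 to 5.99, 2.65 to 15.5 and 2.38 to 10.5 CPM, and for cholangiocyte markers 3.70 to 5.60, 8.59 to 13.3 and 4.77 to 8.28 CPM.

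**Figure D5:**
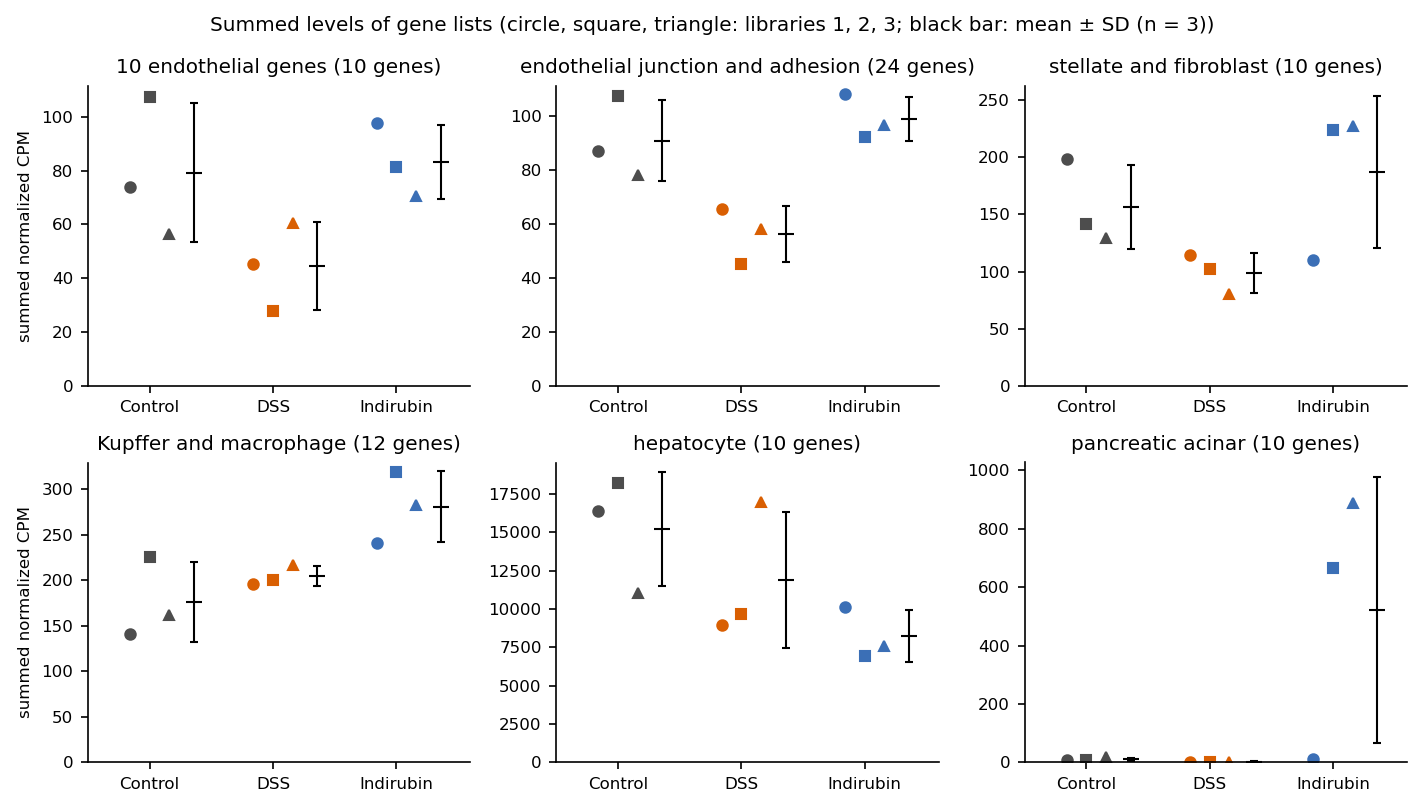
Summed normalized CPM (vertical axis) of the 10 endothelial genes and 5 other lists in each library, with libraries 1, 2 and 3 as circle, square and triangle and the group mean ± SD (n = 3) as a black bar. The junction and adhesion list, at 45.0 to 65.4 CPM in DSS, 77.9 to 107 CPM in Control and 92.0 to 108 CPM in Indirubin, has all DSS libraries below the others, and the acinar list stands apart in Indirubin-2 and Indirubin-3.

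Averaged over the 10 genes, the log2 level centred on each gene's mean was 0.20, 0.79 and -0.39 in Control, -0.74, -1.69 and 0.04 in DSS, and 0.74, 0.69 and 0.38 in Indirubin. The gene closest to this mean profile, of 9703 compared over 9 libraries, was Hlf, a circadian transcription factor, with a root mean square difference of 0.32. Kctd20 (0.33), Tkt (transketolase, 0.34), Tradd (an adaptor of TNF receptor signalling, 0.35) and Mapk6 (a protein kinase, 0.36) followed. Within the 10, Fcgr2b was closest to the mean of the others, at 0.53, and Lyve1 (1.56) and Cdh5 (1.51) were farthest. DSS-2, the lowest library of the profile, had no count in 14.9% of 5217 genes of like mean level, against 0.958% to 6.80% in the other libraries.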

How the data were processed

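Liver RNA for 9 libraries (400 ng each, RNeasy Plus Micro Kit) was sequenced on a DNBSEQ instrument. The authors deposited raw counts per gene, unnormalized, for 56748 genes. The submitters' processing notes name GRCm39, while aligner, counting program and annotation are not given in the sources used here. The FPKM values deposited by the authors, scaled to something other than the total counts, served only to check the order of levels. Columns of the authors' own comparisons (fold changes, p-values, group means) and 3 gene lists without values per library were not used.

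Counts were normalized by TMM and tested with edgeR 4.0.16 in R 4.3.3 (glmQLFit, glmQLFTest, filterByExpr with a minimum count of 10 and total of 15). Each comparison used the 6 libraries of its groups, all genes and Benjamini-Hochberg adjustment at 0.05. SE is the log2 fold change over the square root of F. DESeq2 1.42.0, other scalings and filters, a replicate block and left-out libraries were alternatives, and the scripts were tested on simulated data. Groups and numbers came from the titles. Same-numbered libraries did not deviate together (correlations of -0.038 to 0.037), so numbers were not taken as pairs. None of the 36 pairs of libraries agreed within sampling noise (chi-square per degree of freedom of 10.1 to 77.8). Figures used matplotlib 3.10.9.

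All 10 genes are reported in every comparison, with up to 3 genes in each direction from each further list at the smallest unadjusted p under 0.05, and the 5 nearest profiles. Of 180 listed names 179 matched once. The members and lists were chosen with earlier results of these data known. Coordinates are those of the deposited table, and promoter windows those of RefSeq on GRCm38.p6. Totals of 569044 to 2132208 nuclear counts limit precision, and floors cover counting error only.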

Additional observations from a re-analysis of the deposited data

How the results depend on the processing

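No endothelial gene of the 10 passed at an adjusted p under 0.05 in any alternative run for the 3 comparisons. Scaling by library size alone gave DSS against Control 0 genes at an unadjusted p under 0.05 in place of 2, where 12.2% of all genes passed, and a median log2 fold change of -0.42, with Pecam1 at 0.17 and Fcgr2b at 0.51, while the median of all genes moved to 0.70. In Indirubin against Control this scaling gave 3 such genes in place of 0, where 27.6% of all genes passed, and a median of 0.89, with Stab1 at 0.35, Fcgr2b at 0.86, Oit3 at 1.02, Dnase1l3 at 0.24 and Cdh5 at 0.76. Without the filter on low counts, which admits Lyve1 to all 3 comparisons, there were 4, 1 and 1 such genes in DSS against Control, Indirubin against DSS and Indirubin against Control (4.34%, 6.23% and 8.64% of all genes), and the 1 in the last was Lyve1. Requiring 10 counts in every library left 4 of the genes in each of the first 2 of these, with 1 such gene (13.2% and 12.2% of all genes) and medians of -0.12 and 0.56, and put Fcgr2b at 0.079 in Indirubin against Control. In Indirubin against DSS 1 gene passed unadjusted with DESeq2 (9.38% of all genes) and with all 9 libraries in one fit (8.65%).

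Without Indirubin-2 and Indirubin-3, an alternative chosen after seeing the data, the lone Indirubin library is assumed to vary like the DSS libraries. There 1 gene passed unadjusted in Indirubin against DSS (3.75% of all genes) and Lyve1 turned to -0.38. Indirubin-1 was above DSS for 9 genes in place of 3, as were 26.5% of genes in place of 9.10%. Against Control the median was 0.35, with Fcgr2b at 0.41 and Dnase1l3 at 0.082. Of the wider lists, Marco turned to -0.71 against DSS and Cd302 to -0.15 against Control. Clec4g in DSS against Control, at 0.003, turned to -0.0014 with DESeq2 size factors, -0.0021 with DESeq2, -0.0023 without the filter and -0.039 with all 9 libraries in one fit.

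With the replicate number as a block the counts at an unadjusted p under 0.05 were 3, 1 and 0 in the 3 comparisons (6.24%, 7.48% and 12.8% of all genes). The medians were -1.20, 1.18 and 0.17, and in Indirubin against Control Fcgr2b turned to 0.00079 and Oit3 to 0.17. The libraries share only a number. Marco, called in DSS against Control and in Indirubin against Control, had adjusted p by edgeR of 0.123 and 0.0185 with the block, 0.176 and 0.00959 with all 9 libraries in one fit, and 0.0480 and 0.0532 without mitochondrial genes. Adgrf5 in Indirubin against DSS had an adjusted p of 0.0100 with DESeq2 and 0.0182 by edgeR without the filter, Nrp1 in Indirubin against Control 0.0250 without the filter, and Klf2 there 0.0423 by edgeR with library size alone. These runs called 80 of 9117 and 156 of 23034 genes in Indirubin against DSS. In Indirubin against Control they called 379 of 22767 and 266 of 8059. The main edgeR fits called 0 and 19 genes.

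Leaving out 1 library at a time gave 1 to 3 unadjusted calls and medians of -1.55 to -0.38 in DSS against Control, 0 to 1 and 0.70 to 1.49 in Indirubin against DSS, and 0 to 2 and -0.22 to 0.57 in Indirubin against Control. Of all genes tested, 4.88% to 7.71%, 4.89% to 10.5% and 9.58% to 17.5% had such a p in the 3 comparisons. Some of these fits admit Lyve1. Over the genes of the full comparison alone the medians were -1.56 to -0.46, 0.70 to 1.49 and -0.41 to 0.55. The lowest DSS against Control counts came without Control-1 or Control-2. Signs turned in DSS against Control for Stab2 (-0.27 to 0.74), Clec4g (-0.23 to 0.32) and Fcgr2b (-0.58 to 0.039), in Indirubin against DSS for Fcgr2b (-0.15 to 0.62), and in Indirubin against Control for Kdr (-0.74 to 0.59), Fcgr2b (-0.42 to 0.16) and Oit3 (-0.81 to 0.65). The cause of these changes was not tested. Depth limits the low genes, and Lyve1, at 0 to 84 counts per library, could be tested in 1 of the 3 comparisons. Over all alternatives, 109, 141 and 115 single-gene fold changes in DSS against Control, Indirubin against DSS and Indirubin against Control kept their direction and their side of the threshold, and 12, 3 and 17 changed sign.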
